A study of Mus musculus with 15 samples.

Results

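Purine bases are recovered or destroyed by a short chain of enzymes. Adenosine made outside the cell by the ectoenzyme Nt5e (CD73) is deaminated to inosine by Ada (adenosine deaminase). Pnp (purine nucleoside phosphorylase) and its copy Pnp2 cut inosine and guanosine into hypoxanthine and guanine, which Hprt returns to nucleotides while Aprt does the same for adenine. Gda (guanine deaminase) takes guanine out of this cycle by turning it into xanthine, Xdh (xanthine dehydrogenase) oxidises hypoxanthine and xanthine to urate, and Uox (urate oxidase) degrades urate further in the mouse. The liver is a main site of urate formation and of urate oxidation.

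These 9 genes were taken by symbol from a table of 19464 gene rows, and each had 1 row. Gda and Pnp were picked on the way their genotype effect differed between the stages, and Pnp2 was added as a similar copy of Pnp, so for these 3 genes fold changes are given as a description with their standard errors and without a test. The other 6 members were tested. RNA was sequenced from mouse livers of 2 genotypes and 2 stages, all on a mixed C57BL/6N;129SvJ background. Wildtype and Stab1-/- mice, which lack Clever-1 (the product of Stab1, a scavenger receptor of sinusoidal endothelium and macrophages) in all cells, were sampled at an age of 2 weeks with 4 livers per genotype, and as embryos at E17.5 with 4 wildtype and 3 Stab1-/- livers. The labels do not say that each library came from a separate animal, so p-values measure only the spread between these libraries.

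Each library held 9659 to 10964 kiloreads on genes. Stab1 was at 7.30 to 11 RPKM (reads scaled to gene length and library total) in the wildtype livers at 2 weeks and at 0.862 to 1.54 RPKM in the Stab1-/- livers. At E17.5 it was at 14.9 to 21.8 and at 3.60 to 5.23 RPKM, so the groups did not overlap at either stage. The hepatocyte markers Alb, Ttr, Apoa1, Fgb, Serpinc1 and Ambp had over 3 reads in every library. At E17.5 markers of neighbouring organs differed between libraries, and 1 library of each genotype stood out most. The 11 intestinal epithelium markers summed to 321 RPKM in Stab1-/- E17.5 replicate 1 against 10.6 and 29.0 RPKM in the other Stab1-/- E17.5 livers. The 7 exocrine pancreas markers summed to 2560 RPKM in wildtype E17.5 replicate 2 against 13.5 to 250 RPKM in the other wildtype E17.5 livers. Wildtype E17.5 replicates 1 and 3 had 84.8 and 250 RPKM of these. In Stab1-/- E17.5 replicate 3 the pancreas markers summed to 73.4 RPKM, against 11.8 and 12.7 RPKM in the other Stab1-/- E17.5 livers. In that library 10 of the 11 intestinal markers had over 3 reads.

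Pnp and Pnp2 are near copies, which decides how far their reads can be told apart, so their sequences come before the values. In GENCODE vM21 on GRCm38, Pnp-201 lies at chr14:50944302-50953412 and Pnp2-201 at chr14:50955992-50964749, both on the plus strand and 2.6 kb apart. Stab1 is on the same chromosome at chr14:31139013-31168641, 19.8 Mb from Pnp-201. The 2 transcripts aligned over 1083 bases with 29 differing bases and 1 gap base (97.3% identity). Coding exons 2 to 5 have the same lengths in both genes and differed at 5 of 641 bases, and exons 3, 4 and 5 are printed to show how sparse these differences are. Capitals mark the bases that differ between the copies.
Pnp exon 3 (chr14:50950258-50950361): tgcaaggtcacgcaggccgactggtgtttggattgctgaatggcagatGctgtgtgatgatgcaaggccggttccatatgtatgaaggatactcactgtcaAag
Pnp2 exon 3 (chr14:50963105-50963208): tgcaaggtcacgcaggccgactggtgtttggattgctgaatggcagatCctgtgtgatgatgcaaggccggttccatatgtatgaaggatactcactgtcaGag
Pnp exon 4 (chr14:50950543-50950718), identical to Pnp2 exon 4 (chr14:50963390-50963565): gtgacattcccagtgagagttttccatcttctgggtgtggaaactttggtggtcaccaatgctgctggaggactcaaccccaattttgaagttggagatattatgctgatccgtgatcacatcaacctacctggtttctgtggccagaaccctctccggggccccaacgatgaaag
Pnp exon 5 (chr14:50950832-50951022): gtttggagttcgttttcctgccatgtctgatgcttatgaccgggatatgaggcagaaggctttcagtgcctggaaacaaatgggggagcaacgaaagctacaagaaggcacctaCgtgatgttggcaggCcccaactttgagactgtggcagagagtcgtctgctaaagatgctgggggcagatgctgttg
Pnp2 exon 5 (chr14:50963679-50963869): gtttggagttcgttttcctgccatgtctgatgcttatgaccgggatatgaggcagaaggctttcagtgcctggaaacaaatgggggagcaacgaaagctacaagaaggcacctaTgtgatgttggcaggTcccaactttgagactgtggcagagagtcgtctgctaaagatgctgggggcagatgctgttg

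Counted from 1 at the first base of each exon and with the Pnp base first, the substitutions are A120C in exon 2, G49C and A102G in exon 3, and C115T and C130T in exon 5. The 176 bases of exon 4 carry no difference at all. Of all 50-base words of Pnp-201, 25.2% also occur in transcripts of Pnp2 or of the annotated gene Gm49342, and for Pnp2-201 the share was 33.1%. Some of the Pnp-201 words counted hold a base that differs from Pnp2 and match only Gm49342. The share of Pnp-201 words found in Pnp2 itself is therefore below 25.2%. No 50-base word of Xdh, Uox, Ada, Hprt or Aprt occurred in another gene, while 0.651% of the words of Gda and 0.563% of those of Nt5e did.

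**Figure D1:**
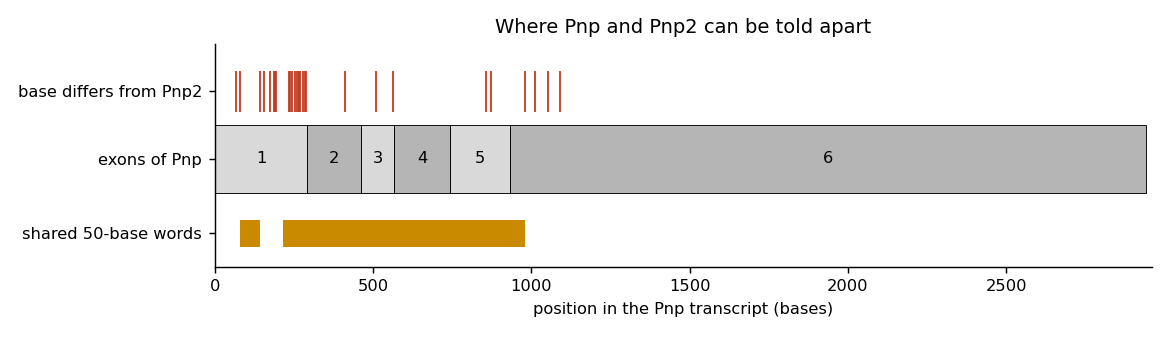
The 6 exons of the Pnp-201 transcript (grey, numbered) against the position in the transcript in bases, with a red tick at each of the 29 bases that differ from Pnp2 and an orange bar where 50-base words are shared with other genes. The shared words cover the coding exons 2 to 5, and the differing bases crowd into exon 1. The longer bar runs from base 216 in exon 1 to base 979. It crosses the differing bases from 234 to 290 in exon 1 and the 5 differing bases of exons 2 to 5. Words that hold a differing base match Gm49342 and not Pnp2.

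Gda was higher in Stab1-/- than in wildtype livers at 2 weeks and lower at E17.5. At 2 weeks Gda was at 5.03, 7.20, 5.96 and 4.91 RPKM in the wildtype livers and at 14, 9.93, 10 and 9.95 RPKM in the Stab1-/- livers. Every Stab1-/- liver was above every wildtype liver, and the means were 11 ± 1.99 and 5.78 ± 1.06 RPKM (SD, n = 4 and 4), a ratio of 1.90. The highest Stab1-/- liver, replicate 1, stood apart from the other 3, which lay within 9.93 to 10 RPKM.

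At E17.5 the order was turned around for Gda. The wildtype livers had 8.92, 8.32, 7.07 and 7.21 RPKM and the Stab1-/- livers 3.82, 4.18 and 3.55 RPKM. Every Stab1-/- liver was below every wildtype liver, with a mean of 3.85 ± 0.316 RPKM (SD, n = 3) against 7.88 ± 0.888 RPKM (SD, n = 4), which is 48.9% of the wildtype level. On the log2 scale of the edgeR fit, Gda in Stab1-/- over wildtype livers was 0.83 (SE 0.14) at 2 weeks and -0.97 (SE 0.12) at E17.5, and the E17.5 effect minus the 2-week effect was -1.84 (SE 0.21). Without the high Stab1-/- liver the 2-week value was 0.72. Without the Stab1-/- library richest in intestinal markers the E17.5 value of Gda was -0.95. Without the wildtype library richest in pancreas markers it was -0.95.

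Gda reads covered 82.6% to 96.1% of the 5417-base gene model in all libraries. The read counts behind these levels ran from 204 in a Stab1-/- E17.5 liver to 746 in a Stab1-/- 2-week liver. Between the stages, the Gda level in wildtype livers differed little on the scale of the edgeR fit. The log2 value for 2 weeks over E17.5 was -0.09 (SE 0.13), whereas in the Stab1-/- livers it was 1.72 (SE 0.14).  In RPKM, the wildtype mean at 2 weeks was 73.3% of that at E17.5. Wildtype livers overlapped between the stages, at 4.91 to 7.20 and 7.07 to 8.92 RPKM, and Stab1-/- livers did not.

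Pnp moved the same way as Gda at each stage, by less at 2 weeks. In the 2-week livers Pnp was at 35, 36, 30.9 and 28.7 RPKM in wildtype and at 43.8, 37.5, 41.3 and 38.6 RPKM in Stab1-/- mice. The groups did not overlap, although only 37.5 and 36 RPKM separated the lowest Stab1-/- from the highest wildtype liver. The means were 40.3 ± 2.84 and 32.7 ± 3.48 RPKM (SD, n = 4 and 4).

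At E17.5 Pnp was at 24.7, 27.5, 33.7 and 33.5 RPKM in wildtype and at 16, 17.2 and 13.2 RPKM in Stab1-/- livers. These groups were further apart than at 2 weeks, with the mean of 15.5 ± 2.03 RPKM (SD, n = 3) in Stab1-/- livers at 51.8% of the wildtype mean of 29.9 ± 4.50 RPKM (SD, n = 4). The log2 fold changes of Pnp were 0.21 (SE 0.09) at 2 weeks and -0.88 (SE 0.13) at E17.5, with a difference of -1.13 (SE 0.16). From E17.5 to 2 weeks the log2 change of Pnp was 0.49 (SE 0.11) in wildtype and 1.60 (SE 0.11) in Stab1-/- livers.

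Non-overlap alone was common. Of the 12716 genes tested at 2 weeks, 10.4% had every Stab1-/- liver above every wildtype liver, and of the 13388 tested at E17.5, 9.30% had every Stab1-/- liver below every wildtype liver. Both patterns in one gene, as in Gda, Pnp and Pnp2, were seen in 148 of 13885 genes, or 1.07%. The 3 genes were picked on this contrast or share reads with one that was, so nothing is read from their place in that count.

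**Figure D2:**
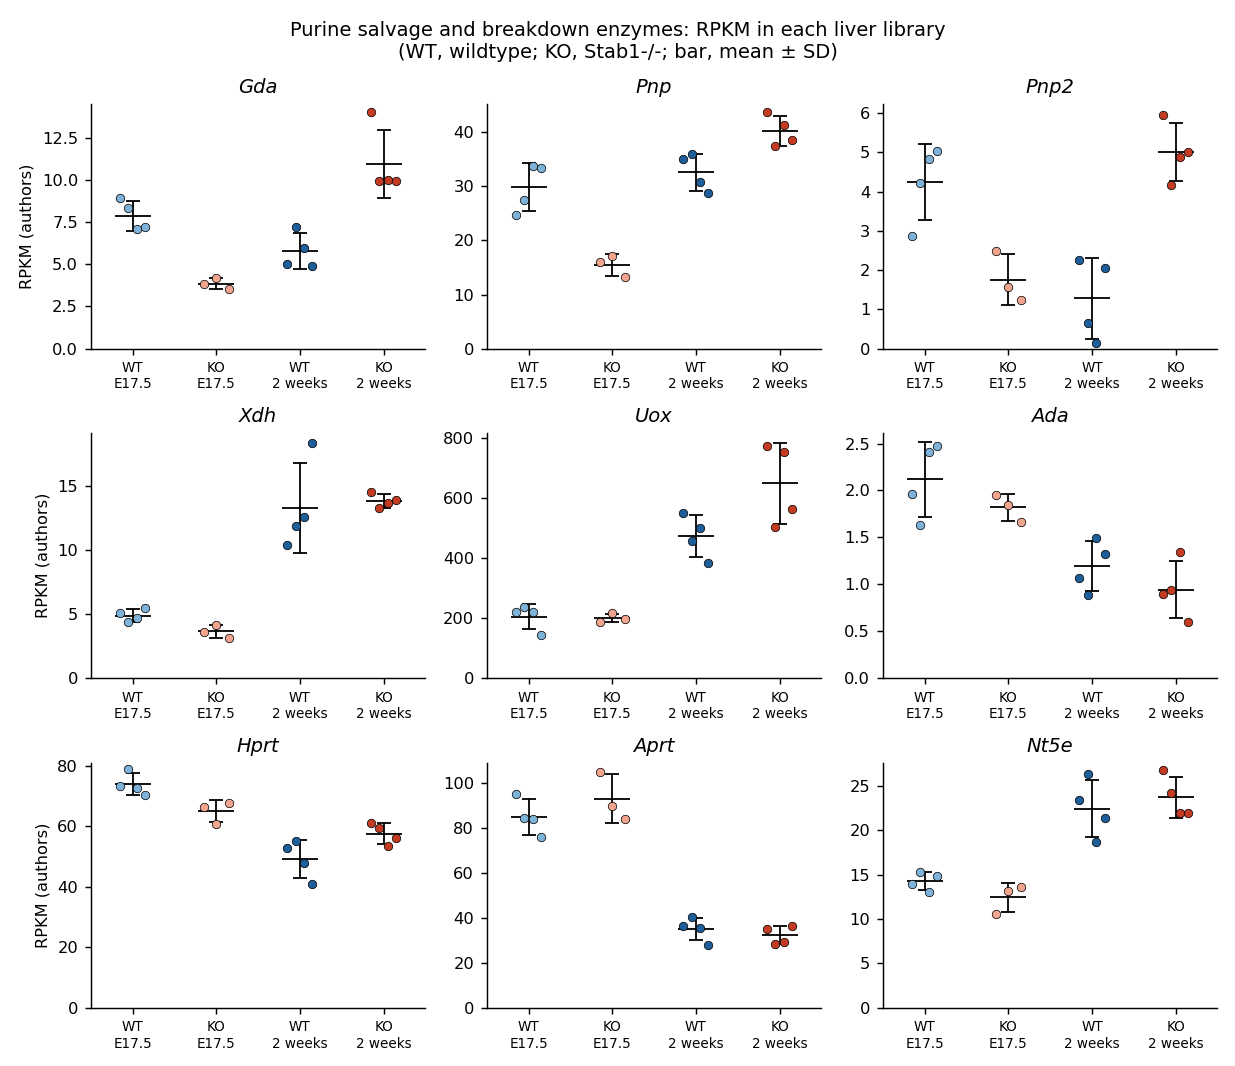
RPKM of the 9 members (y axes start at 0) in each of the 15 libraries by group, with horizontal bars for the mean and error bars for the SD. Gda, Pnp and Pnp2 change order between the genotypes from E17.5 to 2 weeks, while Xdh, Uox and Nt5e are higher and Aprt is lower at 2 weeks than at E17.5 in both genotypes.

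The reads given to Pnp2 were few and fell on different lengths of the gene in different groups. Pnp2 had 29, 8, 2 and 27 reads in the wildtype and 72, 54, 58 and 60 reads in the Stab1-/- livers at 2 weeks, and 38, 54, 65 and 66 reads in the wildtype and 32, 20 and 16 reads in the Stab1-/- livers at E17.5. In read number this was the order seen for Pnp, and the reads given to Pnp2 made up 0.207% to 6.06% of the reads given to both copies. In the wildtype E17.5 livers they covered 57.5% to 68.9% of the 1227-base model. In the other 11 libraries they covered 6.3% to 24.4%. Per 100 covered bases the E17.5 order was the reverse, with 12.8 to 41.5 reads in Stab1-/- and 5.38 to 8.15 reads in wildtype livers. At 2 weeks it was kept, with 40.9 to 75.9 and 2.04 to 22.8 reads. The E17.5 direction of Pnp2 thus depends on the measure.

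The 2-week Stab1-/- livers had as many Pnp2 reads as the wildtype E17.5 livers, 54 to 72 against 38 to 66, but these lay on 79 to 176 bases rather than on 706 to 845 bases. The log2 values for Pnp2 were 1.86 (SE 0.43) at 2 weeks and -1.21 (SE 0.28) at E17.5. The column headings call the counted reads unique, but how a read that matched both copies was treated is not given in the sources used here. The split between Pnp and Pnp2 is therefore uncertain. With the reads of both copies summed, the log2 values were 0.26 at 2 weeks, -0.90 at E17.5 and -1.20 for the difference, close to those of Pnp alone. The reads of Pnp were also uneven. They covered 33.9% to 39.4% of its 2941-base model in every library, against at least 78.8% for Xdh and 94.5% for Aprt.

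**Figure D3:**
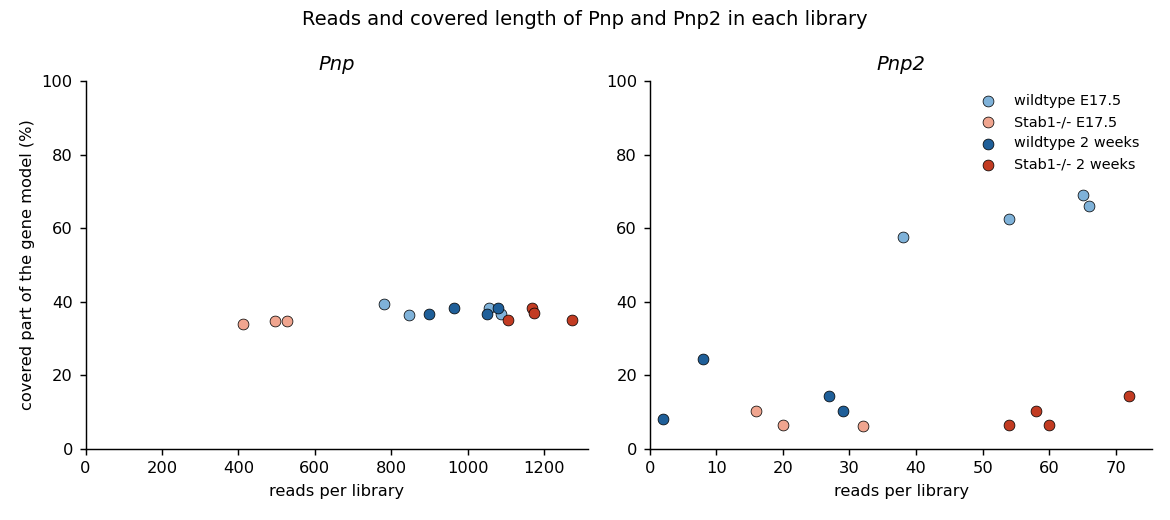
Covered part of the gene model in percent (y axis) against reads (x axis) for Pnp (left) and Pnp2 (right), one point per library. Pnp stays between 33.9% and 39.4% at any read number, whereas for Pnp2 the 4 wildtype E17.5 libraries lie at 57.5% to 68.9% and all others at or below 24.4%.

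None of the 6 tested members passed the test between the genotypes at either stage. With edgeR's quasi-likelihood test and Benjamini-Hochberg adjustment over all genes, 0 of 6 passed an adjusted p of 0.05 at 2 weeks, where 2.67% of all genes did, and 0 of 6 at E17.5, where 0.366% did. At each stage 1 of the 6 was under an unadjusted p of 0.05, and DESeq2 called 0 as well. With these shares among all genes, a count of 0 says little about the 6.

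Uox, at the end of the pathway, was the member under an unadjusted 0.05 at 2 weeks. It was at 550, 457, 500 and 385 RPKM in wildtype and at 775, 504, 753 and 565 RPKM in Stab1-/- livers, so the groups overlapped. The log2 fold change was 0.36 (95% interval 0.05 to 0.68, edgeR adjusted p = 0.163), and over the alternatives the adjusted p ran from 0.0601 to 0.364. At E17.5 it was 0.03 (-0.35 to 0.40).

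Xdh, which makes the urate that Uox degrades, was the corresponding member at E17.5. The wildtype livers had 5.10, 4.36, 4.67 and 5.46 RPKM and the Stab1-/- livers 3.63, 4.19 and 3.17 RPKM. All Stab1-/- livers were below all wildtype livers, but the log2 fold change of -0.36 (95% interval -0.64 to -0.07) did not pass the test (edgeR adjusted p = 0.302, from 0.159 to 0.544 over the alternatives). At 2 weeks Xdh was at 13.3 to 14.6 RPKM in Stab1-/- livers, inside the wildtype range of 10.4 to 18.4 RPKM.

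The phosphoribosyltransferases and Nt5e were close between the genotypes. The log2 intervals of Hprt were -0.08 to 0.36 at 2 weeks and -0.29 to 0.04 at E17.5. For Aprt they were -0.48 to 0.08 and -0.05 to 0.43, and for Nt5e -0.24 to 0.22 and -0.38 to 0.11. A log2 change of 1 in either direction lay outside all of these intervals. Ada was measured with 10 to 45 reads per library and its intervals were wider, -1.04 to 0.17 at 2 weeks and -0.63 to 0.32 at E17.5.

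The difference of the genotype effect between the stages was also tested directly. Of the 6 members, 0 passed (1 under an unadjusted p of 0.05, 0 with DESeq2), where 1.81% of all 13885 genes did. Hprt, with a log2 difference of -0.30 (95% interval -0.56 to -0.03), had an edgeR adjusted p of 0.177. Its mean in the Stab1-/- livers was 88.0% of the wildtype mean at E17.5, where the groups did not overlap, and 117% at 2 weeks, where they did.

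**Figure D4:**
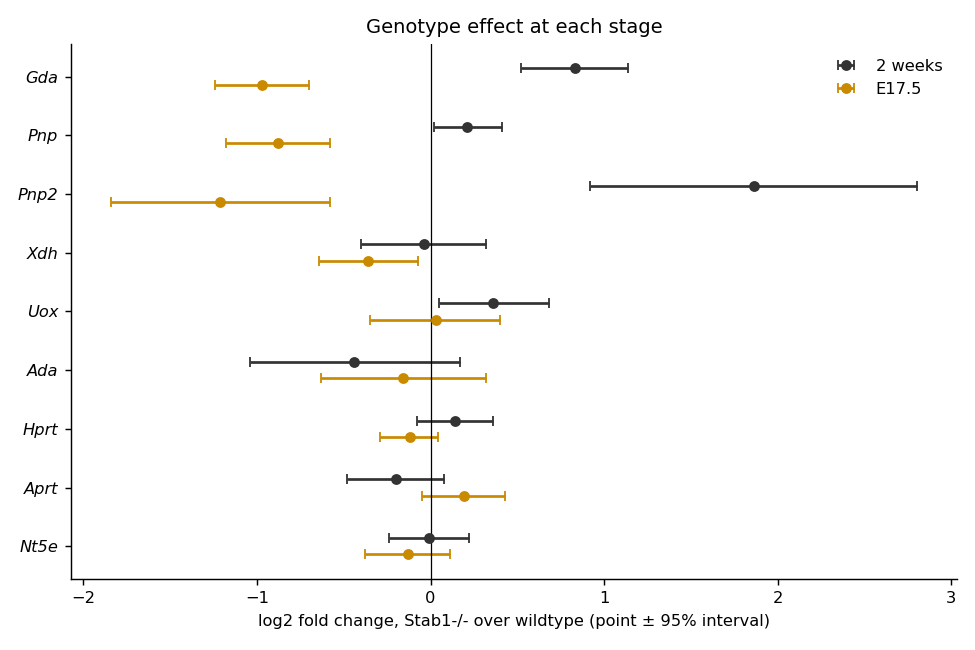
Log2 fold change of Stab1-/- over wildtype livers (x axis) for the 9 members at 2 weeks (dark) and E17.5 (orange), with 95% intervals. For Gda, Pnp and Pnp2 the points lie on opposite sides of 0 at the 2 stages, from 0.21 to 1.86 at 2 weeks and from -1.21 to -0.88 at E17.5, and for the other 6 members all points lie between -0.44 and 0.36.

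Markers of some cell types also moved with genotype. The 6 granulocyte and myeloid precursor markers (Mpo, Elane, Prtn3, S100a8, S100a9, Ltf) summed to 169 to 390 RPKM in Stab1-/- and 25.3 to 128 RPKM in wildtype livers at 2 weeks, and to 3040 to 3410 and 4430 to 7380 RPKM at E17.5. The groups did not overlap at either stage and had the same order as Gda and Pnp. The 6 proliferation markers summed to 16.4 to 29.1 RPKM in Stab1-/- and 29.3 to 40.1 RPKM in wildtype livers at 2 weeks, which is the opposite order, and overlapped at E17.5. The 6 hepatocyte markers summed to 59200 to 75500 RPKM in Stab1-/- and 75900 to 95700 RPKM in wildtype livers at 2 weeks, without overlap, and to 55500 to 65400 and 51400 to 57300 RPKM at E17.5, where the groups overlapped. The summed levels of the Kupffer cell, erythroid, T cell, B cell, endothelial, and stellate and matrix markers overlapped between the genotypes at both stages. At 2 weeks the stellate and matrix markers summed to 230 to 240 RPKM in Stab1-/- and 239 to 288 RPKM in wildtype livers. The endothelial markers summed to 59.6 to 69 and 61.8 to 76.6 RPKM there. In these bulk samples fewer cells of a type and less RNA per cell cannot be told apart, and the part of these markers' cells in the member values was not tested.

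Between the stages most members changed in both genotypes. In wildtype livers 5 of the 6 tested members passed the test for 2 weeks against E17.5, and 71.9% of all 13369 genes tested did. In Stab1-/- livers 5 of 6 passed, against 72.5% of 13433 genes. The member shares are thus near those of the table, and DESeq2 called 4 in each genotype. Among all genes 34.9% were called higher at 2 weeks and 37.0% lower in wildtype livers, and 35.7% and 36.8% in Stab1-/- livers.

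The enzymes of urate formation and breakdown rose. Uox went from 205 ± 41.4 RPKM (SD, n = 4) at E17.5 to 473 ± 70.0 RPKM (SD, n = 4) at 2 weeks in wildtype livers, and from 201 ± 14.3 (n = 3) to 649 ± 135 RPKM (n = 4) in Stab1-/- livers. No 2-week liver was below an E17.5 liver. The log2 changes were 1.56 (edgeR adjusted p = 2.78e-06) and 1.91 (1.31e-06).

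Xdh was 2.72 times as high at 2 weeks as at E17.5 in wildtype livers, 13.3 ± 3.49 against 4.90 ± 0.483 RPKM (SD, n = 4 and 4), and 3.79 times as high in Stab1-/- livers. Its log2 changes were 1.81 (edgeR adjusted p = 1.87e-06) and 2.14 (5.16e-08). Nt5e also rose, from 14.3 ± 0.965 to 22.4 ± 3.21 RPKM in wildtype livers (SD, n = 4 and 4), with log2 changes of 1.01 (edgeR adjusted p = 2.45e-06) and 1.14 in Stab1-/- livers (9.82e-06).

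The salvage enzyme Aprt fell. It was at 95, 84.3, 84.0 and 75.7 RPKM in the wildtype livers at E17.5 and at 36.2, 40.2, 35.5 and 28.0 RPKM at 2 weeks, with log2 changes of -0.92 (edgeR adjusted p = 1.75e-05) in wildtype and -1.30 (2.58e-06) in Stab1-/- livers. The stage groups did not overlap in either genotype. How common such non-overlap between stages is among all genes was not counted, so nothing is read from it for Aprt, Uox or Gda.

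For Hprt and Ada the stage calls were marginal. Hprt passed in wildtype livers (log2 change -0.23, edgeR adjusted p = 0.0489, from 0.00031 to 0.145 over the alternatives) and not in Stab1-/- livers (0.05, 0.664). Ada passed in Stab1-/- livers (log2 change -0.73, edgeR adjusted p = 0.031, from 0.011 to 0.122) and not in wildtype livers (-0.46, 0.0954), where its interval was -0.97 to 0.05. The Ada level was 2.12 ± 0.396 RPKM at E17.5 and 1.19 ± 0.268 RPKM at 2 weeks in wildtype livers (SD, n = 4 and 4).

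Scaling mattered for the stage values. Relative to library totals instead of TMM factors, the median log2 change of all genes was -0.38 in wildtype and -0.24 in Stab1-/- livers, where with TMM it was -0.01 in both. On that scale the wildtype change of Gda was -0.45, that of Pnp 0.13, and Hprt in Stab1-/- livers changed sign to -0.18. Among all genes 3111 were then called higher and 6826 lower in wildtype livers, against 4667 and 4948 with TMM, and 3767 and 5939 in Stab1-/- livers, against 4791 and 4945. Xdh, Uox and Nt5e stayed above 0 and Aprt below 0 under it in both genotypes, and the stage changes here are relative to the TMM scale.

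**Figure D5:**
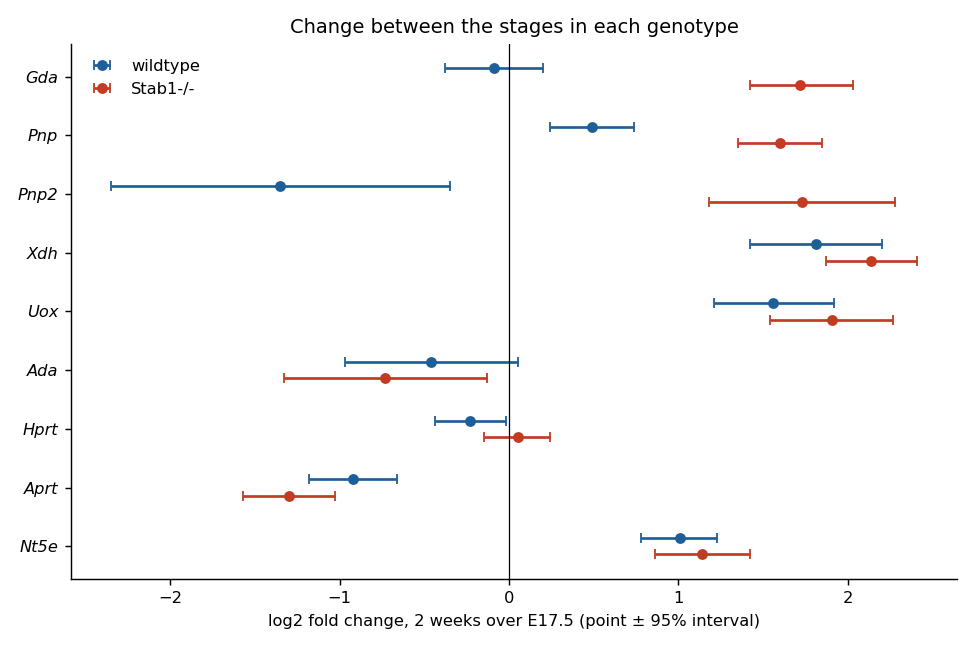
Log2 fold change of 2 weeks over E17.5 on the TMM scale (x axis) for the 9 members in wildtype (blue) and Stab1-/- livers (red), with 95% intervals. Xdh, Uox and Nt5e lie above 0 and Aprt below 0 in both genotypes, while Gda is near 0 in wildtype (-0.09) and at 1.72 in Stab1-/- livers.

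The stages also differed in erythroid and proliferation markers. Summed over 7 erythroid markers the level was 2150 to 2630 RPKM in wildtype livers at E17.5 and 72.9 to 133 RPKM at 2 weeks, and the proliferation markers went from 394 to 511 RPKM to 29.3 to 40.1 RPKM. The part of these marker differences in the members' stage values was not tested.

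The rest of purine metabolism was read from 61 further genes, of which 60 were in the table. Between genotypes at 2 weeks, 0 rose and 2 fell of the 50 tested (10 under an unadjusted p of 0.05, 3 called by DESeq2), where 2.67% of all genes were called, with a median log2 fold change of 0.00 beside -0.01 over all genes. The 2 calls became 0 with library totals and 0 to 1 when a library was left out. Abcg2, a urate exporter, was at 10.8 to 13.3 RPKM in Stab1-/- and 15 to 21.9 RPKM in wildtype livers (log2 fold change -0.63, edgeR adjusted p = 0.04). Lacc1, which has been described as a purine nucleoside enzyme of macrophages, was at 3.65 to 5.63 and 5.99 to 8.21 RPKM (-0.63, edgeR adjusted p = 0.0413).

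At E17.5, 0 of 51 were called (10 under an unadjusted p of 0.05, 0 with DESeq2), where 0.366% of all genes were, with a median of 0.07 beside 0.00 over all genes. Lacc1 was at 3.32 to 4.36 RPKM in Stab1-/- and 4.42 to 5.93 RPKM in wildtype livers there, with a log2 fold change of -0.45 and an edgeR adjusted p of 0.246. In the difference between stages 0 of 54 were called (7 under an unadjusted p of 0.05, 3 with DESeq2), where 1.81% of all genes were.

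Between the stages, 27 of 53 of these genes were higher and 20 lower at 2 weeks in wildtype livers (88.7% called), and 26 higher and 22 lower in Stab1-/- livers (90.6%). Of all genes 71.9% and 72.5% were called, with 34.9% higher and 37.0% lower in wildtype livers and 35.7% and 36.8% in Stab1-/- livers. Scaled to library totals, 20 were higher and 24 lower in wildtype, and 19 and 23 in Stab1-/- livers. The groups went different ways. Of the 13 genes of de novo purine synthesis 9 fell and 3 rose in each genotype, with a median log2 change of -0.49 in wildtype livers beside -0.01 over all genes. Impdh2, the first step towards guanine nucleotides, fell by 1 on the log2 scale and Pfas by 1.61, while Paics rose by 0.48 and the muscle-type adenylosuccinate synthase Adssl1 by 0.46. With library totals 10 fell and 0 rose in wildtype livers, Paics being at 0.11 and Adssl1 at 0.10 without passing.

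All 5 tested genes of oxidation and urate breakdown other than Xdh and Uox rose in each genotype, and 4 did so with library totals. Their median was 1.13 in wildtype livers. Among all genes 34.9% in wildtype and 35.7% in Stab1-/- livers were called higher. Urah, the enzyme after Uox, went from 28.6 ± 8.14 to 193 ± 27.5 RPKM (SD, n = 4 and 4), a log2 change of 3.11. Aox1, a molybdenum hydroxylase related to Xdh, changed by 1.77.

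Among the other salvage genes 7 rose and 6 fell of 16, where 34.9% of all genes rose and 37.0% fell in wildtype livers. Adk, which phosphorylates adenosine, went from 123 ± 5.62 to 277 ± 13.7 RPKM (log2 change 1.54) and Ahcy, which releases adenosine from S-adenosylhomocysteine, changed by 1.86. Ampd3, the red-cell AMP deaminase, had 550 to 710 reads in wildtype livers at E17.5 and 17 to 21 at 2 weeks (log2 change -4.57), and GMP reductase Gmpr changed by -4.32.

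The extracellular and transport genes also split. Entpd8, a canalicular nucleotidase of hepatocytes, changed by 3.03 and Enpp1 by 1.86, whereas Entpd1, the nucleotidase CD39 of vessels and leukocytes, changed by -0.67. Slc22a7, an organic anion transporter, had 1132 to 1337 reads in wildtype livers at 2 weeks and 0 to 9 at E17.5, and Slc17a1, a phosphate and urate carrier, changed by 4.71. The nucleoside carriers Slc28a1 and Slc28a2 were the other way round, with 0 to 2 and 2 to 8 reads at 2 weeks against 20 to 30 and 26 to 39 at E17.5. Of the adenosine receptors Adora1 changed by 1.15 and Adora2a by 0.57. All these genes passed the test in wildtype livers, and of those given here by name Paics, Adssl1 and Adora2a did not with library totals.

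Genes with a pattern like that of Gda and Pnp were sought by the root mean square difference of centred log2(RPKM + 0.1) values over the 15 libraries, among 12042 genes with a mean of at least 1 RPKM. For Gda the 5 nearest were Slirp (0.271), Zfp617 (0.285), 2810001G20Rik (0.291), Trim12c (0.299) and Itpa (0.305). At 2 weeks Slirp, the nearest, had means of 43.9 RPKM in wildtype and 67.8 RPKM in Stab1-/- livers. At E17.5 its means were 44.9 and 31.7 RPKM. Itpa, only at rank 5, removes deaminated purine nucleotides such as ITP. In the same order its means were 30.9 and 50.4 RPKM at 2 weeks and 32.9 and 23.7 RPKM at E17.5. For scale, the root mean square spread of Gda around its own mean was 0.554. Pnp was at rank 24 from Gda, with 0.332, and Gda was at rank 158 from Pnp. The 3 nearest to Pnp were Klhdc9 (0.207), Zc3h8 (0.252) and Bad (0.255). These distances describe the same libraries from which Gda and Pnp were picked.

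Per listed length, the members ordered by their wildtype mean at 2 weeks were Uox, Hprt, Aprt, Pnp, Nt5e, Xdh, Gda, Pnp2 and Ada. This order depends on the listed lengths. In these livers reads covered 36.6% to 38.4% of the Pnp model and 8.0% to 24.4% of the Pnp2 model. For Hprt they covered 95.5% to 97.2%. Counted per covered base, each of these livers had more reads on Pnp than on Hprt or Aprt. Uox, at 473 RPKM, was well above all others, and Hprt at 49.2 RPKM lay above Aprt at 35 and Pnp at 32.7 RPKM, which overlapped. Nt5e stood at 22.4 and Xdh at 13.3 RPKM, and Gda at 5.78 RPKM was above Pnp2 at 1.28 and Ada at 1.19 RPKM, which overlapped with each other. At E17.5 the wildtype order began with Uox at 205, Aprt at 84.8 and Hprt at 73.9 RPKM, of which the last 2 overlapped, and Gda at 7.88 RPKM was above Xdh at 4.90 RPKM with no overlap.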

How the data were processed

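RNA-seq of 15 mouse liver libraries was used. The authors deposited one table with a unique read count per gene and library, which is not normalised, an RPKM value, and the covered part of each gene model in percent, beside the gene length. Library preparation followed standard Illumina protocols per the labels. The aligner, the counter, the strand setting, the genome build and the read length are not given in the sources used here. Recomputing RPKM from the deposited counts, lengths and library totals gave the deposited values.

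Counts were fitted on the whole table with edgeR 4.0.16 in R 4.3.3 (TMM factors, filterByExpr set to a count of at least 10 and a total of at least 15, quasi-likelihood test), with Benjamini-Hochberg adjustment over all genes tested and a call at 0.05. Standard errors were the log2 fold change over the square root of F, and 95% intervals used the t distribution that gives the p-value of the fit. Genotype was compared within each stage, stage within each genotype, and the difference of the genotype effects over all 15 libraries. Non-overlap between groups was judged on RPKM. Scripts were tested on simulated counts. Alternatives were DESeq2 1.42.0 and its median-of-ratios scaling, library totals, no filter, GC offsets, all libraries in one fit, the replicate block and leaving out each library.

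The 9 members and the lists of other purine genes and cell markers were chosen with earlier results of these data known. Named genes of the lists were those called in a genotype comparison, and per list up to 2 with the largest rise and up to 2 with the largest fall in wildtype livers between the stages. Positions and sequences came from GENCODE vM21 transcripts on GRCm38, aligned with Biopython, and may not match the build behind the counts. The genes most like Gda and Pnp were to be the 5 nearest each, and for Pnp the list stops at 3, since 1 item is not reported here.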

Additional observations from a re-analysis of the deposited data

Results flagged for a closer look

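In the Stab1-/- 2-week livers, Gda in replicate 1 (14 RPKM) lay far from the nearest other liver (10 RPKM), a gap of 0.974 of the whole range of the group. It was the 1 library of this kind among 33 groups of 4 libraries examined. These groups held the RPKM of the 9 members and the covered share of the gene models of Pnp and Pnp2. Chance flags about 1 in 20 groups, which makes 1.65 here. In replicate 1 the granulocyte and myeloid precursor markers summed to 390 RPKM, against 169 to 273 RPKM in the other Stab1-/- 2-week livers. Its hepatocyte markers summed to 59200 RPKM, against 69500 to 75500 RPKM. Its Kupffer cell markers, at 357 RPKM, lay inside the range of the others, 287 to 385 RPKM. The part of these in its Gda level was not tested.

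For Gda, Pnp and Pnp2 every Stab1-/- liver was above every wildtype liver at 2 weeks and below every wildtype liver at E17.5. The E17.5 effect minus the 2-week effect was -1.84 (SE 0.21) for Gda, -1.13 (SE 0.16) for Pnp and -3.11 (SE 0.6) for Pnp2 on the log2 scale. Gda and Pnp were picked on this difference and Pnp2 can share reads with Pnp, so the difference was not tested. The Pnp2 value rests on 2 to 72 reads per library. These covered 57.5% to 68.9% of its model in wildtype E17.5 livers and 6.3% to 24.4% in the other groups.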

How the results depend on the processing

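Of 707 values under an alternative, 663 kept their direction and their side of the threshold. The genotype effects of Gda, Pnp and Pnp2 kept their signs under every alternative, and 0 of the 6 tested members were called in either genotype comparison or in the difference under any. For the other purine genes at 2 weeks the 2 calls became 0 with library totals, 4 with the replicate block, 4 with GC offsets and the replicate block, and 0 to 1 when a library was left out. In the difference between stages the 0 calls became 3 with DESeq2, and 0 to 2 when a library was left out, with 2 without wildtype 2 weeks replicate 1. The causes were not tested.

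Signs turned only for log2 values that passed no test or were not tested. At 2 weeks Xdh (-0.04) was 0.06 with library totals, 0.01 with GC offsets, 0.05 with GC offsets and block, and -0.15 to 0.18 with a library left out. Hprt (0.14) was -0.14 with GC offsets and -0.15 with the block added. Nt5e (-0.01) was 0.00 with median-of-ratios scaling, 0.08 with library totals, 0.00 with DESeq2, 0.01 with all 15 libraries, and -0.08 to 0.06 with a library left out. At E17.5 Uox (0.03) was -0.03 with library totals, -0.12 with the replicate block, -0.11 with GC offsets and block, and -0.12 to 0.09 with a library left out, while Hprt (-0.12) was 0.03 with GC offsets and 0.02 with the block added. Between the stages in Stab1-/- livers Hprt (0.05) was -0.18 with library totals. In wildtype livers the stage value of Gda (-0.09), which was not tested, was -0.18 to 0.01 with a library left out.

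The stage call of Hprt in wildtype livers was lost with median-of-ratios scaling (adjusted p = 0.0622), no filter (0.0903), DESeq2 (0.0523) and when any 1 of 6 libraries was left out. That of Ada in Stab1-/- livers was lost with no filter (0.0614), DESeq2 (0.104), the replicate block (0.122) and when any 1 of 5 was left out, while in wildtype livers Ada passed with library totals (0.00551) and without wildtype E17.5 replicate 2 (0.0487). Same-numbered libraries did not deviate strongly together, with correlations of -0.178 to 0.183, so the numbers were not taken as pairs. Between the genotypes at 2 weeks, where the block gave more calls, the correlations were 0.166, -0.0118, 0.0956 and 0.114. Whether these libraries share a batch by number was not tested. Over all genes the calls of higher and lower genes were 119 and 221 at 2 weeks (642 and 539 with the block, 420 and 441 with DESeq2, 137 and 118 with library totals), 26 and 23 at E17.5 (10 and 13, 127 and 103, 22 and 32) and 140 and 111 in the difference (246 and 345, 599 and 429, 83 and 209). At 2 weeks they were 316 and 387 with all 15 libraries and 365 and 351 with GC offsets and block (12 and 17 at E17.5). With a library left out they ran from 41 to 294 and 75 to 354 at 2 weeks, from 15 to 23 and 12 to 24 at E17.5, and from 21 to 311 and 5 to 373 in the difference.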
